A study of Mus musculus with 23 samples.

Results

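The libraries described here are 7 of the 11 RNA-seq libraries labelled Selenow knock-out, chosen by their Selenow level, which was under 75% of the wild-type mean of the same time, out of 23 libraries in all. They were set against all 12 wild-type libraries, and also against the 4 other libraries that carry the knock-out label. All libraries come from bone marrow-derived macrophages, which are macrophages grown in culture from mouse bone marrow. The 7 low-Selenow knock-out libraries are 14 and 15 (untreated, 0 h), 17 and 18 (4 h of bacterial lipopolysaccharide, LPS, at 100 ng/ml), 20 and 21 (8 h) and 23 (24 h). The 4 other labelled knock-out libraries, 13, 16, 19 and 22, stand 1 at each time. Wild-type libraries are 1 to 3 at 0 h, 4 to 6 at 4 h, 7 to 9 at 8 h and 10 to 12 at 24 h. The labels used here name no strain, age or sex, and do not say how Selenow was inactivated or whether libraries come from separate animals. P-values therefore measure the spread between libraries, which may be technical.

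Macrophages sense LPS through Toll-like receptor 4, which switches on NF-kB and interferon regulatory factors and with them a large set of cytokine, chemokine and interferon-stimulated genes. Selenow encodes selenoprotein W, a small cytosolic protein with a thioredoxin-like fold and a selenocysteine at its active site, grouped with the redox proteins of the cell. The data bear on whether cells with less Selenow RNA differ from wild-type cells in other genes, and on whether they differ from cells of the same label that kept the transcript.

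Selenow, on chromosome 7 (GRCm38, 15917208 to 15922402), chose the libraries, so its level is a description and no test was made of it. In CPM, a gene's count scaled to a common library total, libraries 14 and 15 held 53.7 and 50.4 CPM, libraries 17 and 18 held 74.4 and 63.7 CPM, libraries 20 and 21 held 121 and 110 CPM, and library 23 held 116 CPM. That is 31.7% to 63.3% of the wild-type mean of the same time. Libraries 13, 16, 19 and 22 held 135, 153, 235 and 196 CPM, which is 85.3% to 107% of that mean and goes against their label. Just inside the limit was library 23 at 63.3%, and just outside it was library 13 at 85.3%, while the lowest wild-type library stood at 84.5%. No library lacked Selenow reads, and the removed part of the gene is not given in the labels used here.

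**Figure D1:**
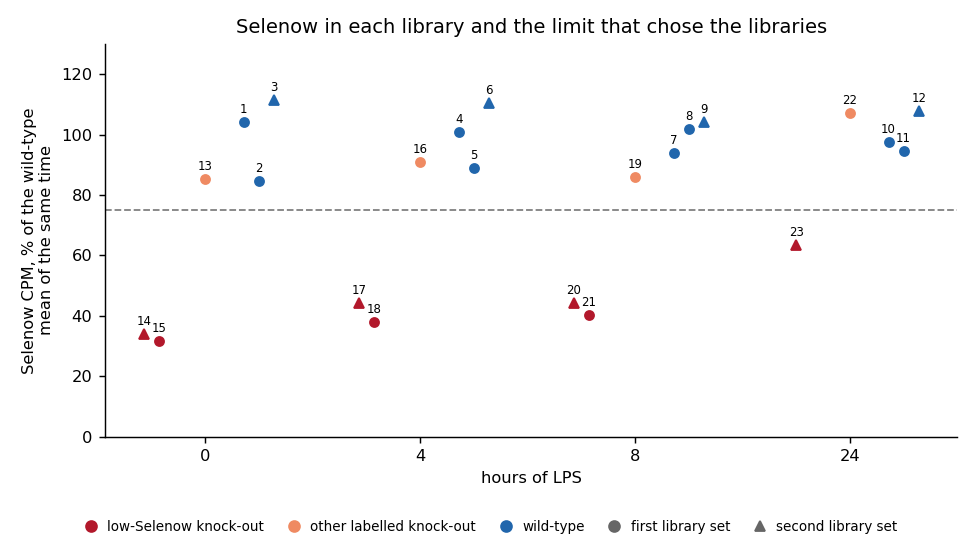
Selenow CPM of each of the 23 libraries as a percentage of the wild-type mean of its time, by hours of LPS, with library numbers and triangles for a second library set; the dashed line is the 75% limit. The 7 low-Selenow libraries lie below it, from 31.7% to 63.3%. The 4 other labelled knock-out libraries lie among the wild-type ones of their time, except library 19 at 8 h (86.0%, with the lowest wild-type library of that time at 93.9%).

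Libraries held 39001456 to 41819953 counted fragments, so a count of 0 allows up to 0.0769 CPM (3 counts, counting error only). The 10 macrophage markers, such as Adgre1, Csf1r and Lyz2, were present in every library, with summed levels of 15130 to 28300 CPM in low-Selenow knock-out and 13450 to 27220 CPM in wild-type libraries, and none of them was called. An earlier description of these data divided the libraries by their expression values into a second set (3, 6, 9, 12, 14, 17, 20 and 23) and a first set (the rest). The labels do not name these sets. Among the low-Selenow libraries, 14, 17, 20 and 23 belong to the second set and 15, 18 and 21 to the first, while all 4 other labelled knock-out libraries belong to the first.

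Across all genes, low-Selenow knock-out libraries differed from wild-type at 646 of 17534 genes tested (3.68%), with 337 higher (1.92%) and 309 lower (1.76%). The test was edgeR's quasi-likelihood F-test with time as a term, Selenow left out, and a gene was called at a Benjamini-Hochberg adjusted p under 0.05 over all genes, while 13.1% had an unadjusted p under 0.05. The difference was at least 2-fold for 344 of the called genes. At 307 of them the low-Selenow and wild-type libraries did not overlap at any of the 4 times, beside which the share of all genes tested that lay wholly above or below at every time was 0.981% and 0.907%. For any gene in these whole cultures, fewer cells of a type and less RNA per cell cannot be told apart. The median log2 fold change of all genes was 0.0038, and the median standard error (SE) of a log2 fold change 0.14. The 4 other labelled knock-out libraries, with Selenow near the wild-type level, differed from the same 12 wild-type libraries at 313 of 17243 genes (1.82%), with 141 higher (0.818%) and 172 lower (0.998%), and at 202 when library 19 was left out. These comparisons share their wild-type libraries, so their values are given side by side below and no overlap was taken as a result.

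Set directly against the 4 other labelled knock-out libraries, the 7 low-Selenow libraries differed at 1 of 17438 genes (0.00573%), and at 351 (2.01%) at an unadjusted p under 0.05. Those 4 all belong to the first library set, while low-Selenow libraries 14, 17, 20 and 23 belong to the second, and the fit had no set term. Within the first set, at 0, 4 and 8 h, 102 of 16782 genes (0.608%) were called, and over both sets DESeq2 called 9. The 1 gene called by edgeR over both sets was Capn11, which encodes a calpain, a calcium-dependent protease known mainly from testis. Over all libraries of a kind, 1 fragment of Capn11 was counted in the 7 low-Selenow libraries, 94 in the 4 other labelled knock-out libraries and 5 in the 12 wild-type libraries. The 4 other labelled knock-out libraries held 0.783, 0.465, 0.426 and 0.485 CPM, all above every low-Selenow and wild-type library (adjusted p = 0.011 by edgeR's quasi-likelihood test, low-Selenow against other labelled knock-out). The level is low, the call was lost when any 1 of libraries 13, 14, 15, 16, 17, 19 or 21 was left out, and no gene was called when those under 1 CPM were removed (204 at an unadjusted p under 0.05). Of the 586 genes that differed from wild-type and could be tested in this comparison, 79 had an unadjusted p under 0.05 (13.5%) and none an adjusted one. Their median absolute log2 fold change was 0.97 against wild-type and 0.14 against the other labelled knock-out libraries. These genes were chosen by their difference from wild-type, so the larger value there follows in part from the choice. The same 7 low-Selenow libraries enter both comparisons, so these figures do not test whether the 2 kinds of labelled knock-out library are alike.

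Named genes are in TMM-scaled CPM below, a CPM corrected for library composition, and a fold change is low-Selenow knock-out over wild-type on the log2 scale with its SE. Of the called genes, 161 averaged 5 CPM or more and stayed apart from wild-type at every time. Predicted loci and pseudogenes among them were counted but not ranked, which left 70 higher and 52 lower genes. The largest increase among these was that of Npy, the gene for neuropeptide Y, a peptide transmitter of neurons. The untreated libraries 14 and 15 had 3.90 and 2.67 CPM of Npy, library 13 held 4.62 CPM, and wild-type libraries 0.0561, 0.0369 and 0.0946 CPM. At 4 h libraries 17 and 18 held 16.3 and 34.2 CPM, library 16 held 29.7 CPM and wild-type 0.149, 0.0886 and 0.053 CPM. At 8 h libraries 20 and 21 held 23.3 and 60.5 CPM, library 19 held 69.5 CPM and wild-type 0.0903, 0.17 and 0.118 CPM, and at 24 h library 23 held 44.2 CPM, library 22 held 78.0 CPM and wild-type 0.0464, 0 and 0.0495 CPM. All libraries with the knock-out label were thus far above all wild-type libraries, whatever their Selenow level, and wild-type levels lay around the floor of 3 counts. The fitted difference was 8.19 ± 0.38 (adjusted p = 2.72e-11, edgeR). Against the other labelled knock-out libraries Npy differed by -0.56 (95% interval -1.19 to 0.06), which was not called.

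Gdf3, a secreted ligand of the TGF-beta family, was 8.02-fold higher (SE 0.21 on the log2 scale, adjusted p = 1.69e-08). Low-Selenow libraries 14 and 15 held 17.4 and 39.1 CPM, 17 and 18 held 11.5 and 23.5, 20 and 21 held 7.53 and 19.2, and 23 held 11.8 CPM. Wild-type libraries ranged from 1.02 to 3.77 CPM with a median of 2.25 CPM, and the other labelled knock-out libraries from 21.8 to 42.9 CPM. Groups did not overlap with wild-type. At 0, 4 and 8 h the low-Selenow library of the first set lay just under the other labelled knock-out library, and the one of the second set further below. Within the first set Gdf3 was higher than in wild-type by 3.69, and within the second by 2.37, both called.

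Osbpl3 and Fkbp9 lie on chromosome 6 like Npy and Gdf3. Osbpl3 lies 464 kb from Npy and encodes a lipid-transfer protein of the oxysterol-binding family. Its increase was 2.32 ± 0.35 (adjusted p = 0.000298), with 30.7 to 79.8 CPM in low-Selenow libraries and 3.56 to 24.0 CPM in wild-type. Fkbp9, a peptidyl-prolyl isomerase of the endoplasmic reticulum, was higher by 2.01 ± 0.10 (adjusted p = 5.32e-11), at 1.69 to 19.6 CPM in low-Selenow libraries and 0.269 to 4.66 CPM in wild-type. The other labelled knock-out libraries were higher than wild-type by 2.01 for Osbpl3 and 2.14 for Fkbp9. Low-Selenow and wild-type libraries were closest at 0 h for Osbpl3, at 34.7 and 32.4 CPM in low-Selenow against 22.9, 24.0 and 21.4 CPM in wild-type.

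Sema4b, a membrane semaphorin, was higher by 1.54 ± 0.21 (adjusted p = 8.74e-05), and the zinc finger gene Zfp213 by 1.28 ± 0.12 (adjusted p = 6.70e-07). The other labelled knock-out libraries differed from wild-type by 1.48 and 1.26 for these. An antisense transcript covers 10.1% of the exonic bases of Zfp213, and counting did not use strand. Rsph3a, for a radial spoke protein of cilia, was higher by 1.52 ± 0.17 (adjusted p = 1.04e-05), with 9.91 to 17.4 CPM in low-Selenow libraries against 2.53 to 6.84 CPM in wild-type. Rsph3a has a near-identical copy, Rsph3b, and with both summed the increase was 0.87 ± 0.12.

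Epas1, which encodes the hypoxia-inducible transcription factor HIF-2 alpha, fell the most of those 52 genes. Left out of that ranking are pseudogene copies described further on, some of which fell by more. Untreated low-Selenow libraries held 5.99 and 5.88 CPM of Epas1, library 13 held 5.48 CPM and wild-type 52.7, 50.3 and 78.0 CPM. At 4 h library 18 held 3.54 CPM, library 17 a little less at 2.998 CPM, library 16 2.98 CPM and wild-type 30.4, 35.0 and 40.3 CPM. By 8 h low-Selenow libraries were at 0.834 and 0.961 CPM, library 19 held 0.851 CPM and wild-type 9.97, 6.97 and 9.06 CPM. At 24 h library 23 held 0.376 CPM, library 22 held 1.01 CPM and wild-type 9.64, 11.3 and 7.04 CPM. Low-Selenow and wild-type libraries did not overlap, at a difference of -3.49 ± 0.17 (adjusted p = 5.26e-11), an 11.2-fold lower level, and the other labelled knock-out libraries stood with the low-Selenow ones. Of the 16 genes tested in the list of hypoxia response genes, which does not hold Epas1, none was called (median log2 fold change -0.13).

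Several transporters and signalling genes were lower at every time. Abca5, a lipid transporter of the ABC family, fell by 2.23 ± 0.28 (adjusted p = 4.67e-05), with 0.22 to 8.94 CPM in low-Selenow libraries against 3.97 to 16.7 CPM in wild-type. Camk2b, the beta chain of calcium/calmodulin-dependent kinase II, fell by 2.05 ± 0.21 (adjusted p = 2.83e-06). Wdfy1, an endosomal adaptor of Toll-like receptors 3 and 4, fell by 2.06 ± 0.19 (adjusted p = 5.63e-07), at 5.40 to 24.7 CPM in low-Selenow and 24.4 to 125 CPM in wild-type libraries. Steap3, an endosomal ferrireductase that reduces iron taken up with transferrin, fell by 1.87 ± 0.24 (adjusted p = 4.22e-05). The other labelled knock-out libraries were lower than wild-type by similar amounts, at -2.11 for Abca5, -1.86 for Camk2b, -2.01 for Wdfy1 and -1.50 for Steap3.

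Mov10, an RNA helicase that restricts retroelements and viruses, held 24.7 and 26.7 CPM in untreated low-Selenow libraries, against 88.2, 81.6 and 125 CPM in wild-type. After LPS it stood at 240 and 300 CPM at 4 h, 377 and 266 CPM at 8 h and 112 CPM at 24 h in low-Selenow libraries. Wild-type held 686, 694 and 617 CPM, then 705, 601 and 837 CPM, then 173, 150 and 324 CPM at those times. Levels after LPS were thus above those at 0 h in both, and lower in low-Selenow libraries at every time (-1.36 ± 0.17, adjusted p = 3.71e-05). H2-T24, a non-classical class I gene on chromosome 17, was likewise lower at each time, most at 0 h with 11.5 and 20.1 CPM against 62.5, 50.2 and 84.7 CPM in wild-type (-1.46 ± 0.16, adjusted p = 5.73e-06).

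Guidance and adhesion genes Sema3c, a secreted semaphorin, and Flrt2, a leucine-rich membrane protein, fell by 1.63 ± 0.24 and 1.37 ± 0.21 (adjusted p = 0.000198 and 0.00036). Colec12, a collectin-type scavenger receptor, fell by 1.41 ± 0.13 (adjusted p = 8.92e-07). Mid1, a microtubule-bound ubiquitin ligase on the X chromosome, fell by 1.74 ± 0.20 (adjusted p = 1.14e-05). Mid1 shares 14.2% of its exonic bases with a transcript of the opposite strand, which was lower too (-2.68).

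Cd300ld4 and Cd300ld5 are neighbouring immunoglobulin-like receptor genes of the CD300 family on chromosome 11, 4.47 kb apart and near-identical. Cd300ld5 ranged from 0.868 to 4.30 CPM in low-Selenow libraries against 2.35 to 19.9 CPM in wild-type (-2.42 ± 0.38, adjusted p = 0.000505). Cd300ld4 was lower by 2.23 ± 0.40 (adjusted p = 0.00178). Wild-type levels were themselves uneven, with libraries 3, 6, 9 and 12 of the second set the lowest of each time. Within the second set Cd300ld4 was lower by 0.88 (adjusted p = 0.117) and was not called.

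**Figure D2:**
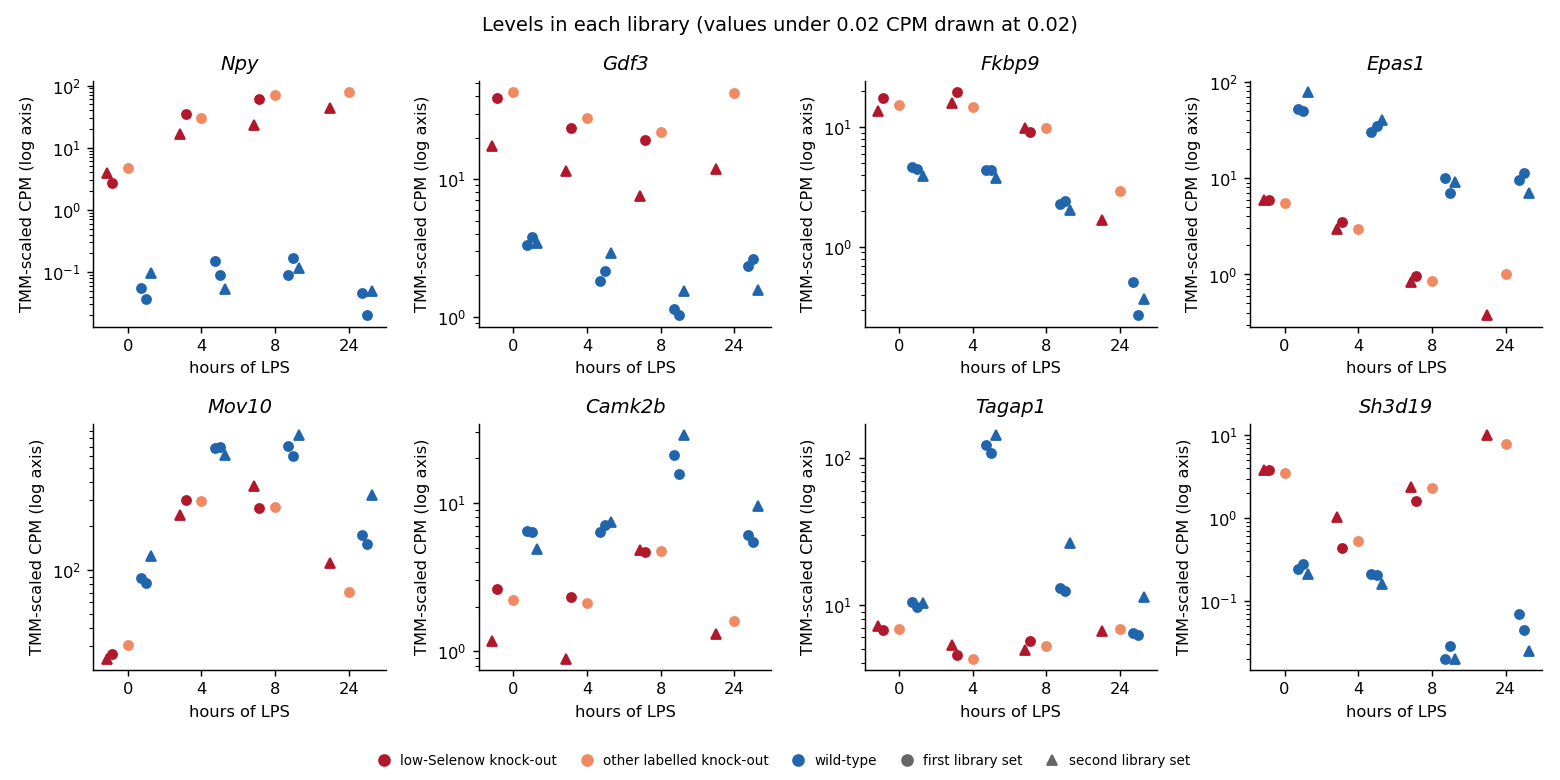
TMM-scaled CPM (log axis) of 8 genes in each library by hours of LPS, with low-Selenow knock-out, other labelled knock-out and wild-type libraries side by side and triangles for the second library set. In the first 6 panels both kinds of labelled knock-out library lie on the same side of wild-type without overlap at every time, Tagap1 parts most at 4 h, and Sh3d19 parts least at 4 h.

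A group of the called genes consists of protein-coding genes and their near-identical copies elsewhere in the genome, called in opposite directions. Copies were defined as genes with a transcript at least 95% identical over at least 200 bases and 50% of the shorter transcript. Such a copy exists for 2829 of 16991 tested genes with a transcript in the annotation (16.6%) and for 142 of 637 called ones (22.3%). In 31 pairs, which hold 39 called genes, both members were called with opposite signs. Pairs with more than 1 alignment were not counted, and a read from one copy may have been counted in another, so each single value is uncertain. How reads were placed between copies was not tested.

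Such a pair is Rps3a1, for a protein of the small ribosomal subunit, on chromosome 3 (86137940 to 86142702), and its intronless copy Rps3a3 on chromosome 13 (108670603 to 108671397). Rps3a1 held 283 to 554 CPM in low-Selenow libraries against 88.9 to 234 CPM in wild-type (1.32 ± 0.08, adjusted p = 6.13e-10). Rps3a3 held 2.04 to 4.05 CPM in low-Selenow libraries against 66.2 to 193 CPM in wild-type (-5.54 ± 0.12, adjusted p = 2.90e-16). Another copy, Rps3a2, fell by 4.31 ± 0.17. Of all counts over Rps3a1 and its 6 copies, Rps3a1 held 97.8% to 98.1% in low-Selenow libraries, 97.7% to 97.9% in the other labelled knock-out libraries and 46.4% to 52.0% in wild-type. Summed, the family was higher by 0.33 ± 0.08 (adjusted p = 0.0168, edgeR).

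The sequences show how little separates such a pair. Over the 795 bases of Rps3a3, Rps3a1 differs at 9. The stretch of 120 bases (463 to 582 of the copy, transcript strand) is shown from GENCODE mouse release 21 on GRCm38, with the bases that differ in capitals.

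Rps3a1: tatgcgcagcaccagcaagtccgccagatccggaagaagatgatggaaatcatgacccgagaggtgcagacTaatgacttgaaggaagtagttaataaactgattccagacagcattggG

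Rps3a3: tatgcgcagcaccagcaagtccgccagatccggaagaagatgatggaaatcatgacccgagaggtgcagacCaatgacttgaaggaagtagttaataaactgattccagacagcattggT

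Atp6v0c, the proton-carrying subunit of the lysosomal proton pump, lies on chromosome 17 (24163866 to 24169702), and its copy Atp6v0c-ps2 on chromosome 6 (37806086 to 37806550) differs from it at 1 of 465 bases. The 120 bases around that position (51 to 170 of the copy) show it in capitals.

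Atp6v0c: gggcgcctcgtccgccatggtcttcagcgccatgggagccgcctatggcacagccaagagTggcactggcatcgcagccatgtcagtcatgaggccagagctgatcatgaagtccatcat

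Atp6v0c-ps2: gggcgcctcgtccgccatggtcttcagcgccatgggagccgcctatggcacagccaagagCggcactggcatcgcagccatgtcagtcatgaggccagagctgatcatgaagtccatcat

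Atp6v0c held 200 to 330 CPM in low-Selenow libraries against 85.1 to 139 CPM in wild-type (1.16 ± 0.10), while its copy held 3.70 to 8.45 CPM against 150 to 237 CPM (-5.15 ± 0.15). Summed over the copies, Atp6v0c differed by -0.20 ± 0.10 and was not called (adjusted p = 0.373), so its increase depended on counting it alone. Hmga1, an architectural chromatin protein, gave the same picture with Hmga1b, at 1.28 ± 0.15 and -2.54 ± 0.18 alone and 0.12 ± 0.16 summed (adjusted p = 0.845). Ndufs5, a subunit of respiratory complex I, was higher by 1.34 ± 0.10 alone and by 0.09 ± 0.09 summed (adjusted p = 0.749).

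Other families kept a smaller difference when summed. Rpl34, for a protein of the large ribosomal subunit, was higher by 2.71 ± 0.07 alone (104.5 to 190.9 CPM in low-Selenow libraries against 15.1 to 30.6 CPM in wild-type) and by 0.99 ± 0.06 with its 5 copies. Capza1, which caps actin filaments, was higher by 1.31 ± 0.05 alone and 0.21 ± 0.05 summed, and the splicing factor Rnps1 by 1.48 ± 0.07 alone and 0.58 ± 0.07 summed. All 3 sums were still called (adjusted p = 4.79e-09 for Rpl34, 0.0342 for Capza1 and 2.47e-05 for Rnps1). In each of these 7 families the share of counts in the named gene did not overlap between low-Selenow and wild-type libraries. Each of these 7 genes was called higher and had a copy called lower, so this separation follows in part from the choice of families. For Rsph3a, Mid1, Cd300ld5 and Tagap1, each with its copies, the ranges of the share over all times did overlap.

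**Figure D3:**
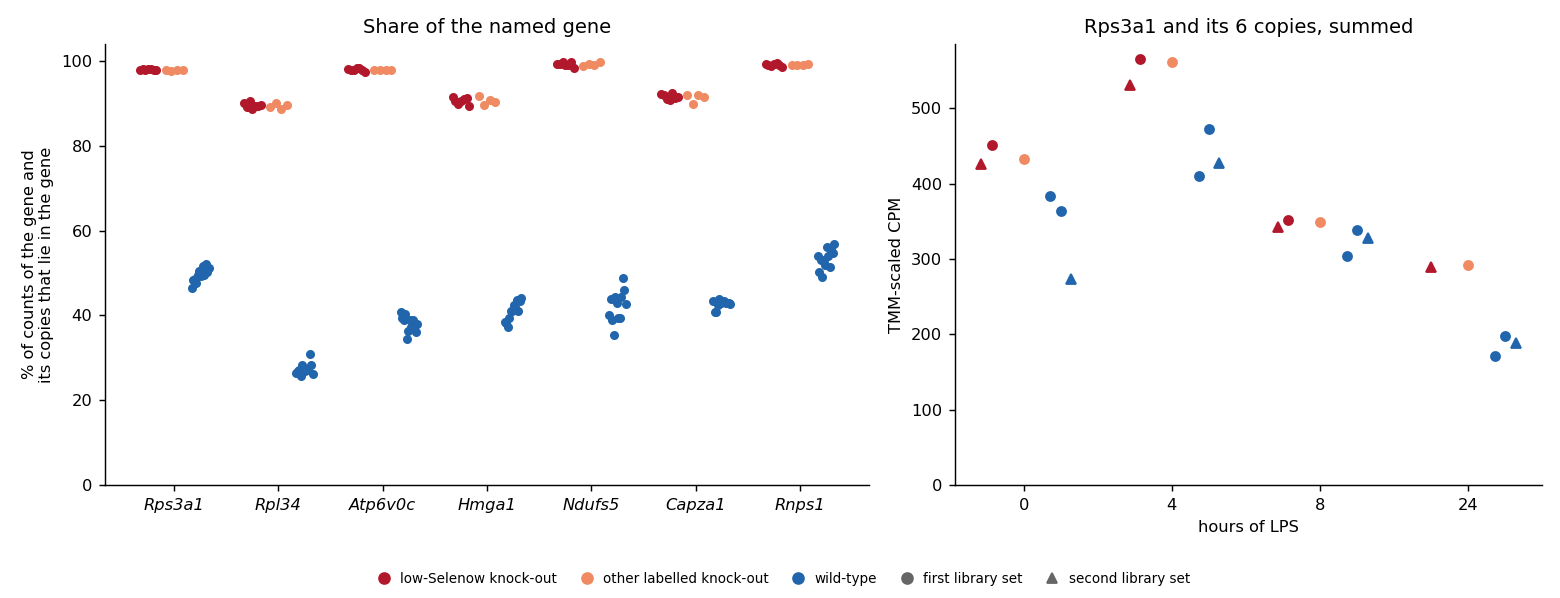
Left, percentage of the counts of a gene and its near-identical copies that lie in the named gene, a point per library, for 7 families; right, the summed TMM-scaled CPM of Rps3a1 and its 6 copies by hours of LPS. Shares are 88.6% or more in both kinds of labelled knock-out library and 56.8% or less in wild-type, whereas the sums lie far closer together.

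Of the 23 selenoprotein genes other than Selenow, 19 could be tested, and 1 was higher and 1 lower. Over all genes tested, 1.92% were higher and 1.76% lower. Sephs2, which makes the selenophosphate needed for selenocysteine and is itself a selenoprotein, was higher by 0.38 ± 0.10 (adjusted p = 0.0387). Selenoi, an ethanolamine phosphotransferase, fell by 0.40 ± 0.09 (adjusted p = 0.0126), but its value of -0.42 within the second library set was not called (adjusted p = 0.150, edgeR). Sephs2 ranged from 19.7 to 106 CPM in low-Selenow libraries against 20.4 to 84.1 CPM in wild-type, overlapped at 4 h, and lost its call when any 1 of 12 of the 19 libraries was left out (adjusted p up to 0.223). The glutathione peroxidases Gpx1 and Gpx4 differed by 0.02 ± 0.07 and 0.10 ± 0.07, the thioredoxin reductases Txnrd1 and Txnrd2 by 0.15 ± 0.11 and 0.05 ± 0.11, and Msrb1, which reduces oxidised methionine, by -0.02 ± 0.13. The median over the 19 genes was -0.0023, beside 0.0038 for all genes, and none of the 10 genes of selenocysteine synthesis and insertion was called.

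Calls among other redox genes stand beside 3.68% of all genes tested, 1.92% higher and 1.76% lower. None of 25 genes of the thioredoxin, peroxiredoxin and glutathione systems was called, with a median of 0.01 and values from -0.39 for Nnt, the mitochondrial transhydrogenase, to 0.80 for Msrb3. Within the first library set 3 of 24 were higher and 2 lower (median -0.09), and within the second none of 25 was called (median 0.08). Of all genes tested, 2.87% were higher and 3.75% lower within the first set, and 1.22% and 1.63% within the second. In the list of NRF2 targets, 2 of 25 were higher. Nfe2l2, the gene of the transcription factor NRF2 itself, was higher by 0.38 ± 0.09 (adjusted p = 0.0254, 267 to 372 CPM in low-Selenow against 161 to 334 CPM in wild-type libraries). Blvrb, a biliverdin reductase, was higher by 0.32 ± 0.08 (adjusted p = 0.0325). Leaving out 1 library ended the call of Nfe2l2 for libraries 15, 18 and 23 (0.31 without library 23, adjusted p = 0.148) and that of Blvrb for 11 of 19 libraries. Hmox1, a main NRF2 target that degrades haem, differed by -0.01 ± 0.20 and Nqo1 by 0.40 ± 0.16, neither called. Gsta3 was the only called glutathione transferase of 16 tested (1.01 ± 0.27, adjusted p = 0.0379, at most 2.02 CPM, lost without any 1 of 13 libraries), and none of 8 genes of the NADPH oxidase was called.

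Few inflammatory genes that LPS induces were called over all 19 libraries, beside 3.68% of all genes. None of 23 cytokines was called (median -0.11). Within the second library set 3 of them were lower (median -0.59), and within the first none was called (median -0.12). Of all genes tested, 1.22% were higher and 1.63% lower within the second set, and 2.87% and 3.75% within the first. Over all 19 libraries the values of Il6, Il1b and Tnf, chosen after they were seen, were -0.08 ± 0.57, 0.61 ± 0.32 and 0.29 ± 0.26. These SEs are above the median SE of all genes, 0.14. Il6 at 4 h held 1031 and 407 CPM in low-Selenow libraries and 396, 516 and 1025 CPM in wild-type, so that the higher library of each kind was the one of the second set. None of 42 interferon-stimulated genes was called (median -0.14), whereas 3 were lower within the second set (median -0.43) and 1 was higher within the first (median 0.01). No gene was called over all 19 libraries among 18 class I and 12 class II presentation genes or 16 markers of classical activation. The class I list does not hold H2-T24, which was lower. Within the first set 2 class I genes were higher, and of the classical markers 2 were higher and 1 lower. Within the second set 2 class I genes were lower, and of the classical markers 1 was higher and 2 lower. Nos2, the inducible nitric oxide synthase, differed by -0.17 ± 0.55.

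A few immune genes were called. Cxcl1, a chemokine that attracts neutrophils, was the only called one of 23 chemokines tested, at -1.57 ± 0.43 and an adjusted p of 0.0495, and the call was lost when any 1 of 16 of the 19 libraries was left out. At 8 h it held 4.03 and 8.15 CPM in low-Selenow libraries, 10.4 CPM in library 19 and 33.3, 39.0 and 45.5 CPM in wild-type, while at 0 and 4 h the libraries overlapped. Within the first library set 5 chemokines were lower and 1 higher (median -0.22), and within the second 1 was lower and 1 higher (median -0.40). The shares of all genes tested were 3.75% lower and 2.87% higher in the first set, and 1.63% and 1.22% in the second. Fpr1, the receptor for bacterial formyl peptides, was higher by 1.16 ± 0.24 (adjusted p = 0.0062), with 255 and 303 CPM at 8 h in low-Selenow libraries against 111, 141 and 119 CPM in wild-type. Without library 23 its increase was 0.85 and not called (adjusted p = 0.0651). Tlr2, the receptor for bacterial lipoproteins, was higher by 0.50 ± 0.09 (adjusted p = 0.00145), but by 0.46 and not called within the second set (adjusted p = 0.068, edgeR). Dusp1, a phosphatase that ends MAP kinase signalling, fell by 0.82 ± 0.14 (adjusted p = 0.00103) and overlapped with wild-type at 4 h alone.

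Chil3, a chitinase-like protein used as a marker of alternative activation, was the only one of 14 such genes called and was higher at all 4 times without overlap (0.58 ± 0.08, adjusted p = 6.86e-05). Gsdme, a pore-forming gasdermin, was the only called gene of 21 inflammasome and pyroptosis genes over all 19 libraries, at 0.89 ± 0.13 (adjusted p = 0.000221). Within the first set 2 genes of that list were higher, and within the second 1. In lipid genes, Abcg1, which exports cholesterol to lipoproteins, fell by 0.72 ± 0.11 (adjusted p = 0.00027), and Acadl, a dehydrogenase of fatty acid oxidation, was higher by 0.66 ± 0.12 (adjusted p = 0.00228). Acadl was higher by 0.47 within the first set and was not called there (adjusted p = 0.165, edgeR). None of 20 cholesterol synthesis and uptake genes was called over all 19 libraries, while 2 were higher within the first set. Of 22 genes in the glycolysis list, 1 was higher and 2 lower within the first set, and none was called within the second. Slc16a1, a lactate transporter, was the 1 called gene of that list over all 19 libraries and fell by 1.46 ± 0.35 (adjusted p = 0.0196). Its gap was widest at 4 h, with 19.8 and 52.0 CPM in low-Selenow libraries, 52.2 CPM in library 16 and 264, 260 and 372 CPM in wild-type, and without library 18 it was not called (-1.32, adjusted p = 0.0647). In a list of gene clusters that vary between inbred mouse strains, 3 of 47 tested genes were called over all 19 libraries. Wdfy1 and Glo1 were lower (Glo1 -0.99 ± 0.12, adjusted p = 1.94e-05) and Entpd4 higher (2.14 ± 0.37, adjusted p = 0.0011). Within the first set 1 of the 47 was higher and 2 lower, and within the second 1 was higher and 5 lower. Entpd4 has a near-identical copy, and with both summed the increase was 1.59 ± 0.31.

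Markers of some other cell types differed in the comparison. Of 9 neutrophil markers tested, 6 were higher (median 0.69), beside 1.92% of all genes tested (median 0.0038). Among them were the granule genes Ltf (1.12 ± 0.12, adjusted p = 9.71e-06) and Ngp (0.95 ± 0.13, adjusted p = 0.000109). The summed level of the list was 17.5 to 183.5 CPM in low-Selenow libraries, 19.6 to 184.6 CPM in the other labelled knock-out libraries and 6.07 to 121 CPM in wild-type, and it fell with time in all. At 0 h it was 179 and 183.5 CPM in low-Selenow libraries, 184.6 CPM in library 13 and 102, 121 and 115 CPM in wild-type. No marker of the list was at 0 throughout a group. Their part in other results was not tested.

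Of 8 stromal markers 6 were higher (median 2.59), beside 1.92% of all genes tested (median 0.0038). The summed level of the low-Selenow libraries lay above that of the other labelled knock-out library at every time. Col1a1, the alpha chain of type I collagen, held 10.3, 15.6, 40.1 and 16.6 CPM in libraries 14, 17, 20 and 23 of the second set. Libraries 15, 18 and 21 of the first set held 1.75, 3.57 and 3.32 CPM, the other labelled knock-out libraries 0.535 to 1.92 CPM and wild-type 0.557 to 2.75 CPM. The increase over wild-type was 3.46 ± 0.44 (adjusted p = 5.00e-05), while the other labelled knock-out libraries differed from wild-type by -0.21 ± 0.30. Col1a2 and Sparc, another matrix protein, were higher by 3.49 ± 0.42 and 3.59 ± 0.46 with the same 4 libraries highest at their times. Timp3, an inhibitor of matrix metalloproteinases, was higher by 2.98 ± 0.38 (adjusted p = 5.39e-05), with 12.4 CPM in library 20 and at most 0.963 CPM in any wild-type library. It shares 21.3% of its exonic bases with Syn3 on the opposite strand, which was also higher (2.85). Summed stromal levels were 6.01 to 105.8 CPM in low-Selenow, 2.73 to 35.9 CPM in other labelled knock-out and 2.02 to 41.2 CPM in wild-type libraries. Pdgfrb, a called marker, made up a large part of the highest sums, at up to 71.4, 33.5 and 39.1 CPM in these groups. Within the first set Pdgfrb was higher than in wild-type by 0.27 and was not called (adjusted p = 0.366, edgeR). The other 2 markers, the matrix proteoglycans Dcn and Lum, were not called (-0.51 ± 0.28 and -0.25 ± 0.67). None of the 8 was at 0 throughout a group, and their part in other results was not tested. In the direct comparison with the other labelled knock-out libraries, Col1a1 was higher by 3.69 (95% interval 1.78 to 5.60) but was not called over all genes. Counts of the remaining lists were small, with no called gene among 3 of 6 B cell, 1 of 7 T and NK cell, 6 dendritic cell and 1 of 6 mast cell markers that could be tested. Hba-a1, an alpha globin, was higher (2.48, adjusted p = 0.0491, lost without any 1 of 16 libraries), and Kdr, a vascular growth factor receptor, was lower (-0.44, adjusted p = 0.0302, lost without any 1 of 6).

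Genes of cell division were called within the first library set and hardly at all elsewhere. Over all 19 libraries none of 23 G2 and M phase genes and none of 22 S phase genes was called (medians -0.10 and -0.12). Within the first set, where libraries 15, 18 and 21 were set against wild-type libraries 1, 2, 4, 5, 7, 8, 10 and 11 and 6.62% of all genes tested were called (2.87% higher and 3.75% lower), 22 of 23 G2 and M phase genes and 16 of 22 S phase genes were lower (medians -0.79 and -0.82, beside 0.01 for all genes). Within the second set, where 2.85% of genes were called (1.22% higher and 1.63% lower), 0 of 23 and 1 of 22 were lower (medians 0.09 and -0.13). Top2a, a topoisomerase of dividing cells, held 407 and 113 CPM in libraries 14 and 15 at 0 h, 191 CPM in library 13, and 207, 187 and 326 CPM in wild-type libraries 1, 2 and 3. At 4 h libraries 17 and 18 held 180 and 39.8 CPM, library 16 held 49.7 CPM and wild-type 69.2, 82.0 and 135 CPM. At both times the low-Selenow library of the second set lay above all wild-type libraries and that of the first set below them all. Wild-type libraries 3 and 6 of the second set were likewise the highest wild-type ones at these times. The sets were drawn from expression values, and no test of a difference between them was made.

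Within the first set the 3 low-Selenow libraries could also be set against the other labelled knock-out libraries 13, 16 and 19 at 0, 4 and 8 h, which calls 102 of 16782 genes (0.608%), with 31 higher (0.185%) and 71 lower (0.423%). Lower genes included 13 of 23 G2 and M phase genes and 6 of 22 S phase genes (medians -0.47 and -0.50). Rrm2, a subunit of ribonucleotide reductase, was lower by 1.03 (adjusted p = 0.0169) and Aurkb, a mitotic kinase, by 0.66 (adjusted p = 0.0150). Higher genes included Timp3 (by 2.62) and Col1a1 (by 1.86). These 4 genes were named here after their values were seen. With 1 library of each kind at a time, each time contributes 1 difference, and this fit rests on 6 libraries.

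**Figure D4:**
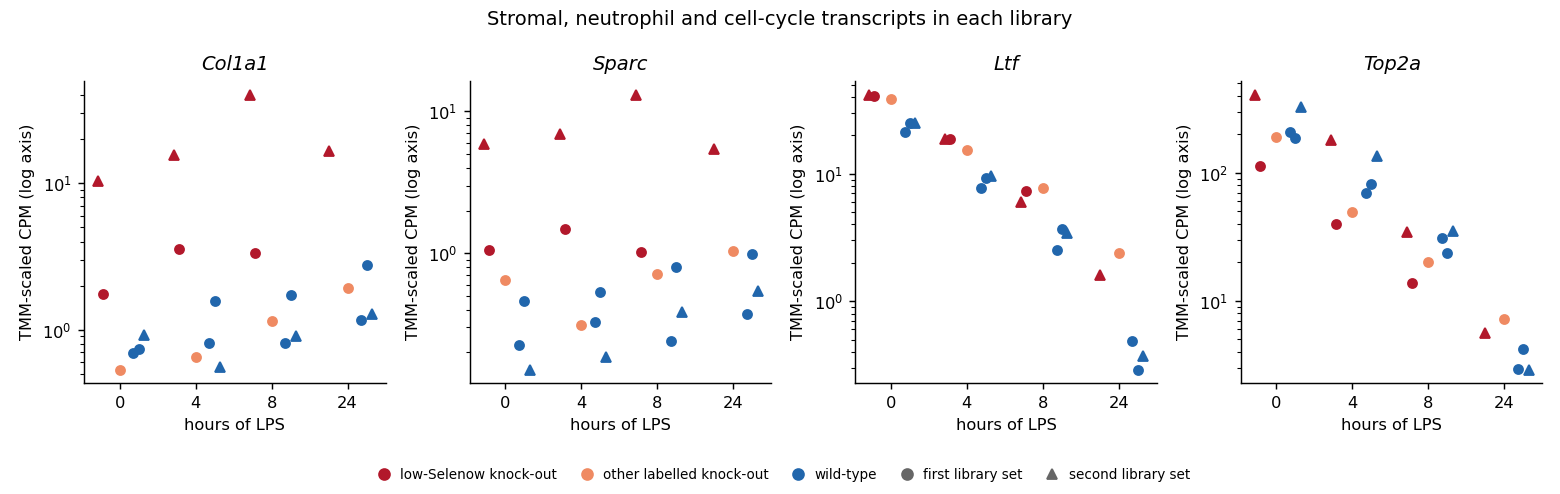
TMM-scaled CPM (log axis) of 2 stromal genes, a neutrophil gene and a cell-cycle gene by hours of LPS in each library, with triangles for the second library set. Col1a1 and Sparc are highest in the second-set low-Selenow libraries, Ltf is higher in both kinds of labelled knock-out library, and Top2a parts by set.

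The difference between low-Selenow and wild-type libraries changed with time for 3 of 18702 genes in a joint test of the interaction (0.016%), with 628 (3.36%) at an unadjusted p under 0.05. In untreated libraries alone 112 genes were called (0.599%), after 4 h of LPS 143 (0.765%), after 8 h 178 (0.952%) and after 24 h 93 (0.497%), where a single low-Selenow library stands and is assumed to vary like the other groups. The interaction count was 0 without library 18, 1 without library 17 and 5 without library 12. Without library 14 or 15 it was 71 or 74 genes at 0 h, without library 17 it was 90 at 4 h, without library 20 or 7 it was 89 or 115 at 8 h, and without library 12 it was 153 at 24 h. Samples without LPS exist at 0 h alone, so LPS and time in culture cannot be told apart. Tagap1, a GTPase-activating protein on chromosome 17, had an adjusted p of 0.00932, which was 0.143 without library 17 and 0.211 without library 18. It held 7.14 and 6.70 CPM at 0 h in low-Selenow libraries against 10.5, 9.73 and 10.3 CPM in wild-type. At 4 h it held 5.32 and 4.58 CPM, with 4.31 CPM in library 16 and 123, 108 and 143 CPM in wild-type (-4.65 ± 0.36). At 8 h low-Selenow libraries were at 4.92 and 5.71 CPM, against 13, 12.5 and 26.4 CPM in wild-type, and at 24 h 6.59 CPM against 6.46, 6.26 and 11.4 CPM. The rise at 4 h was thus seen in wild-type libraries and in none with the knock-out label.

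Tagap1 has a near-identical copy on the same chromosome, Tagap, which at 4 h held 378 and 252 CPM in low-Selenow libraries, 298 CPM in library 16 and 369, 354 and 431 CPM in wild-type. Of the sum of both, Tagap1 held 1.39% and 1.78% at 4 h in low-Selenow libraries against 23.33% to 25.04% in wild-type. Over the sum the interaction was not called (unadjusted p = 0.885). The second called gene, Gm49719, is an antisense transcript that shares 405 exonic bases with Tagap1, and without strand their reads cannot be told apart. It is named here although it is a predicted locus.

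Sh3d19, an adaptor with SH3 domains on chromosome 3, was higher at all times, by 4.64 ± 0.50 over all (adjusted p = 5.34e-06), and by amounts that changed with time (interaction adjusted p = 0.0137, up to 0.146 and not called without library 4, 5, 18 or 23). At 24 h library 23 held 9.97 CPM, library 22 held 7.85 CPM and wild-type 0.0697, 0.0447 and 0.0248 CPM. At 4 h low-Selenow libraries held 1.03 and 0.431 CPM, library 16 held 0.527 CPM and wild-type 0.209, 0.207 and 0.159 CPM. The gene lies 7.41 kb from Rps3a1 with no protein-coding gene between.

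Nlrc4, the inflammasome adaptor that answers to bacterial flagellin, was named after its values were seen. At 4 h it held 9.86 and 9.32 CPM in low-Selenow libraries, 10.01 CPM in library 16 and 59.3, 56.9 and 52.0 CPM in wild-type, and at 8 h 27.1 and 41.9 CPM, 37.9 CPM in library 19 and 98.6, 93.3 and 115 CPM in wild-type. At 0 h it held 14 and 20.3 CPM in low-Selenow libraries against 13.1, 13 and 8.30 CPM in wild-type, so the order turned round. The interaction missed the threshold (adjusted p = 0.0752).

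Called genes were unevenly spread over the genome. Chromosome 17 held 139 of its 944 tested genes as called (14.7%), with 72 higher and 67 lower, and 21.5% of all called genes. Outside chromosome 17 the share was 3.06%. Chromosomes 6, 3 and 1 followed with 5.49%, 5.26% and 5.19%, and chromosome 8 had the lowest share of the autosomes at 1.39%. By windows of 10 Mb with at least 20 tested genes, the shares were highest on chromosome 17 from 0 to 10 Mb (18 of 59 genes, 30.5%) and from 70 to 80 Mb (17 of 61, 27.9%), on chromosome 6 from 0 to 10 Mb (26.5%) and on chromosome 7 from 80 to 90 Mb (24.0%). Of the 28 genes of largest fold described above, 6 lie on chromosome 17, 6 on chromosome 11, 4 on chromosome 3 and 4 on chromosome 6. For the other labelled knock-out libraries against wild-type, chromosome 17 likewise had the largest share of called genes among the autosomes, at 9.79%.

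**Figure D5:**
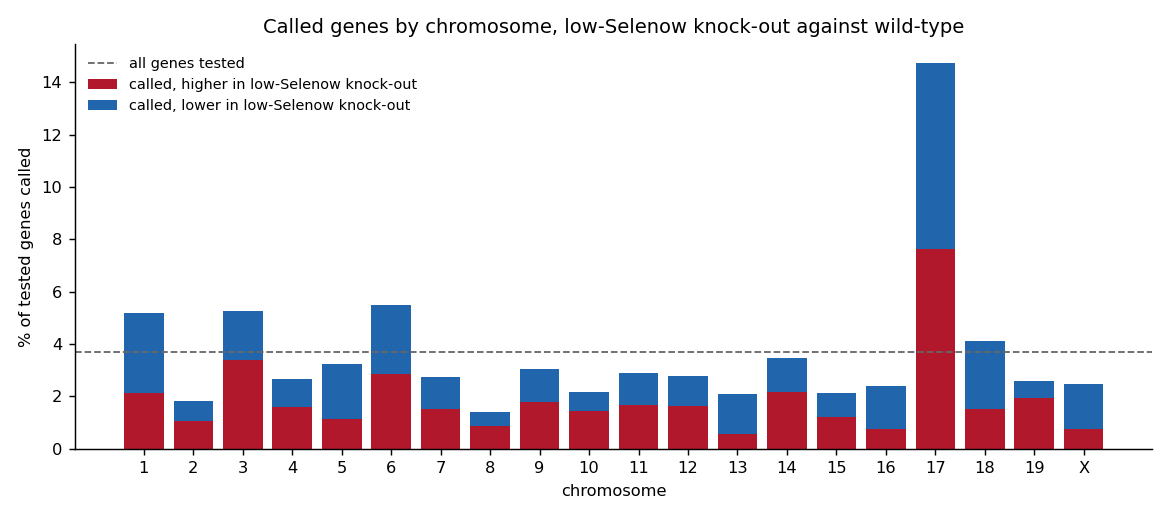
Percentage of tested genes called in low-Selenow knock-out against wild-type libraries by chromosome, split into higher and lower. Chromosome 17 stands at 14.7% beside 3.68% of all genes tested, the dashed line.

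Within 20 Mb of Selenow, 6 of 464 tested genes were called (1.29%), a share below that of all genes tested. The nearest was Ehd2, a membrane-shaping ATPase 24.6 kb away, higher by 1.17 ± 0.21 (adjusted p = 0.00211). It held 0.118 to 2.26 CPM in low-Selenow libraries against 0.0187 to 1.33 CPM in wild-type. The other labelled knock-out libraries differed from wild-type by 0.25 and were not called (adjusted p = 0.731), and the direct comparison of low-Selenow with other labelled knock-out libraries gave 0.87, not called either.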

How the data were processed

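RNA of 23 libraries was sequenced as 100-base paired-end reads after on-column DNase treatment, per the labels' protocols. The authors deposited raw counts, 1 per gene and library, from HISAT2 alignments and featureCounts 2.0.1 with Ensembl release 101 on GRCm38. These names stand in the file headers and in the submitters' processing notes, which also name DESeq2. Counting ignored strand, gave a read pair to every gene it covered and skipped pairs with more than 1 alignment, per the file headers.

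Libraries were chosen by Selenow CPM as stated in the report. The members and gene lists were chosen with earlier results of these data known. Counts were tested with edgeR 4.0.16 in R 4.3.3 (TMM, filterByExpr with the design, quasi-likelihood F-test, two-sided, Benjamini-Hochberg over all genes tested). Terms were time and class, or 8 group means for single times and the interaction. The SE was derived from the fold change and its F statistic. Named genes were the 14 higher and 14 lower called genes of largest fold among those averaging 5 CPM or more that were apart from wild-type at every time, up to 4 called members of each list, redox genes, and every called gene where 5 or fewer were called. Predicted loci and pseudogenes were counted but not named by this rule. Chosen after their values were seen were Gm49719, Rps3a2, Rps3a3, Rpl34-ps1, Atp6v0c, Atp6v0c-ps2, Hmga1b beside Hmga1, Nlrc4, Ehd2, Tagap, Timp3, Syn3, Top2a, Rrm2, Aurkb, Nnt, Il6, Il1b, Tnf and Nos2. Copies were found with BLAST+ 2.17.0 among GENCODE mouse release 21 transcripts. Of 55401 gene IDs, 55141 had a symbol there. Scripts were tested on simulated counts. Alternatives were RLE and upper-quartile scaling, other filters, DESeq2 1.42.0, voom in limma 3.58.1, a stricter threshold, a fold threshold, leaving out each library or the 24 h libraries, and fits by library set. Summing copies, and leaving out genes with a copy, were added after seeing the data.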

Additional observations from a re-analysis of the deposited data

Results flagged for a closer look

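By the joint interaction test, 3 genes differed between low-Selenow knock-out and wild-type libraries by an amount that changed over the 4 times. Tagap1 had an adjusted p of 0.00932, and at 4 h was lower in low-Selenow than in wild-type libraries by 4.65 on the log2 scale. Summed with its near-identical copy, its interaction was not called (unadjusted p = 0.885, edgeR). Gm49719, antisense to Tagap1, had an adjusted p of 0.0103, and held 3.21 and 2.80 CPM at 4 h in low-Selenow libraries against 46.3, 39.6 and 52.2 CPM in wild-type. Sh3d19 had an adjusted p of 0.0137, and its difference was 1.93 ± 0.41 at 4 h and 7.65 ± 0.47 at 24 h. No group held 4 or more libraries at 1 time, so single libraries were not tested for standing apart.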

How the results depend on the processing

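The count of 646 genes for low-Selenow knock-out against wild-type libraries moved by over 1.5 times at an adjusted p under 0.01 (391), with a 1.5-fold threshold (248), with all 11 labelled knock-out libraries (1043), with the library set as a term (1091) and within the first set (1149). It was 492 within the second set, 481 without genes that have a near-identical copy, and 437 to 877 under the other alternatives. Higher genes were 52.2% of the calls, against 43.3% within the first set and 42.7% within the second. For low-Selenow against other labelled knock-out libraries the count was 6 with no filter, 0 with the 1 CPM filter, 9 by DESeq2, 0 at an adjusted p under 0.01 and 102 within the first set. For other labelled knock-out against wild-type it was 570 by DESeq2 and 191 at the stricter threshold. The interaction count was 10 with no filter, 53 by DESeq2 and 1 at the stricter threshold. DESeq2 and the stricter threshold gave 282 and 71 genes at 0 h, 221 and 92 at 4 h, 312 and 107 at 8 h, and 160 and 50 at 24 h, and no filter gave 174 at 0 h. Leaving out each library in turn gave 492 to 677 genes against wild-type, 0 to 2 against other labelled knock-out, 202 to 381 for other labelled knock-out against wild-type, and 0 to 5 for the interaction. At single times it gave 71 to 127 at 0 h, 90 to 164 at 4 h, 89 to 221 at 8 h and 64 to 153 at 24 h. The cause of these shifts was not tested. Of 68 called genes followed singly, not all of them printed, 52 kept call and direction under every alternative other than the fits within a set and the summed copies, and 0 changed direction. Within the first set 59 of 67 with a value kept call and direction and 8 lost the call. Within the second 53 of 68 kept them and 15 lost the call. All 28 genes of largest fold were among the 52, with 28 kept in the first set and 27 in the second. These 28 were chosen for a large fold and no overlap with wild-type at any time. That they kept their calls follows in part from this choice. Summing copies turned the sign of Hmga1b (0.12), Rps3a2 (0.33), Rps3a3 (0.33), Rpl34-ps1 (0.99) and Atp6v0c (-0.20), by construction, since the sum is that of the whole family. No paired analysis was possible because the labels number the libraries 1 to 23 without a shared number. At the depth of these libraries a count of 0 allows up to 0.0769 CPM, so it does not show that a transcript was absent.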
